A study of Mus musculus with 2 samples.

Results

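The genes described here are those of the major histocompatibility complex (MHC) of the mouse, whose symbols begin with H2-, and 7 genes that serve the same pathway: B2m, Tap1, Tap2, Tapbp, Cd74, Ciita and Nlrc5. They were chosen by symbol, with earlier results of these data known. Of the 21368 named genes on the array 42 belong to them, read by 52 of the 28330 named probes. Total RNA of mouse heart was hybridised to 1-colour Agilent arrays in 2 samples with 1 array each. The control was heart tissue of C57BL6 background with the genotype control. The other, called WRN-K577M here, was heart tissue of the same background with the transgene CAG-WRN*K577M (line 5025Wcl/Mmmh, strain B6.Cg). In it CAG, a promoter active in most cell types, drives a form of the WRN helicase with a substitution in its helicase domain. The labels give neither age nor treatment and do not explain the letters ND that both titles carry. They do not give how many hearts went into a sample, so a heart named below means the sample, 1 heart or a pool. The study's question was which signalling lies behind cardiac remodelling in the transgenic mice.

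MHC class I molecules show peptides from inside the cell to CD8 T cells and are made by nearly all nucleated cells. Peptides are cut by the proteasome, carried into the endoplasmic reticulum by the transporter Tap1 and Tap2, and loaded onto a class I heavy chain that pairs with B2m. MHC class II molecules show peptides taken up from outside to CD4 T cells and are made mainly by dendritic cells, B cells and macrophages, in the heart as elsewhere. Their alpha and beta chains are held by the invariant chain, Cd74, until H2-DM exchanges its remnant for a peptide in the endosome. Ciita switches class II genes on through a promoter module of X and Y boxes, and Nlrc5 is its counterpart for class I.

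The promoter stretches below show that module in class II genes whose levels are described next, beside a class I heavy chain gene and B2m. Each line gives bases -140 to -21 before the RefSeq start, 5′ to 3′ on the gene's strand, from the GRCm38.p6 assembly. Capitals mark the X core GNAAC where it lies 28 to 34 bases before a Y core, counted from start to start, and the Y core GATTGG on either strand (CCAATC on the other).
H2-Aa (chr17:34287844-34287963, minus strand): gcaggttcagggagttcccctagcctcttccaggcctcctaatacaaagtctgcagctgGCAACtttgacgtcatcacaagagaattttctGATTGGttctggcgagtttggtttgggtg
H2-Eb1 (chr17:34305727-34305846, plus strand): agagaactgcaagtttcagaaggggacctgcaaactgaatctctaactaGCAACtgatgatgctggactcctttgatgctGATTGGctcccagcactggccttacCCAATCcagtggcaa
H2-DMb1 (chr17:34153051-34153170, plus strand): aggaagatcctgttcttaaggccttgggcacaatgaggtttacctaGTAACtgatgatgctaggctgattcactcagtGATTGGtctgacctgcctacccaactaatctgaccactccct
H2-Ob (chr17:34238765-34238884, plus strand): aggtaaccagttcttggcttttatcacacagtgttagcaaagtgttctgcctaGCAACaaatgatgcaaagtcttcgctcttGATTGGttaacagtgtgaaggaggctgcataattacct
H2-K1 (chr17:34000368-34000487, minus strand): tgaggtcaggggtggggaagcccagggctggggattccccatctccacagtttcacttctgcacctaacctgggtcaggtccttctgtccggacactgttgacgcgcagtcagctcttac
B2m (chr2:122147547-122147666, plus strand): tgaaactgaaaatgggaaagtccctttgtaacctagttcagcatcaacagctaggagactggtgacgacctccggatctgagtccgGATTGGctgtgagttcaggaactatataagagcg

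The pair of cores was found in the windows of 6 of the 8 class II genes in the RefSeq promoter table, H2-Aa, H2-Eb1, H2-Eb2, H2-DMb1, H2-Oa and H2-Ob, with 29 to 32 bases between the starts of the cores. It was found in none of the 19 class I genes in that table, and in 0.432% of all 32851 windows, which run from 250 bases before to 50 after a start and were searched on both strands. The Y core alone occurred in 14 of the 19 class I genes, in all 8 class II genes and in 16.1% of all windows. H2-K1 is among the 14, with its Y core outside the stretch shown above. The H2-DMa windows held no pair, and H2-Ab1 is not in the promoter table. The letters and the spacing were chosen with the class II sequences in view, so these counts describe the windows and test nothing. A module with other letters or spacing would be missed, so the counts do not show that class I genes or B2m lack one.

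A gene is called measured where a probe was well above background on both arrays, which held for 27 of the 42 genes and for 13999 of all named genes. A level is the log2 of the signal over the array's 75th percentile, and the log2 ratio is WRN-K577M minus control. Where a pair of levels is given, the control comes first. Since each group is a single array (1 sample), the genotypes cannot be tested against each other, no ratio has a replicate check, and other differences between the samples cannot be told apart from genotype. For scale, the log2 ratio varied between the spots of 159 probes printed 10 times with an SD of 0.12, and the software's own error of the ratio lay between 0.20 and 0.44 for the measured members. The tissue label was checked first: all 9 cardiomyocyte genes examined were measured, and their median log2 ratio was 0.15 by the brightest probes. Myh6, the cardiac alpha-myosin heavy chain, had levels of 9.52 (control) and 9.70 (WRN-K577M), and its other probe had a ratio of -0.30. The other probe of Atp2a2 had a ratio of -0.19. The check does not show that the samples held heart alone. Of 7 lung alveolar type 2 markers, 5 were well above background in the control alone, with Sftpc at a level of 5.96 there.

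Class II genes had lower levels in the WRN-K577M heart, and class I genes were near equal. All 5 measured class II genes lay at least 1.5-fold lower, with a median log2 ratio of -0.91 (1.88-fold) and a range of -1.07 to -0.70. None of the 13 measured class I genes reached 1.5-fold in either direction, and their median was -0.10 with a range of -0.51 to 0.33. The difference between the class medians was -0.81, and by each gene's brightest measured probe the ranges of the classes did not overlap. Probes well above background on 1 array only are outside these ranges, and their nominal bounds make no allowance for error. Among these probes, a second one of the class I gene H2-Q10 was at least 3.44-fold lower. Of class II genes, H2-Eb2 was at least 1.48-fold higher, and H2-Ob and H2-Oa at least 2.23-fold and 1.06-fold lower. After normexp background correction of the median spot signal with an offset of 50, H2-DMa had a ratio of -0.57, short of 1.5-fold, so that 4 of the 5 class II genes stayed at least 1.5-fold lower. Over all 13999 measured genes, 9.16% were at least 1.5-fold lower and 6.75% at least 1.5-fold higher, and the median was 0.020. Of these genes, 6667 had a ratio below 0.

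**Figure D1:**
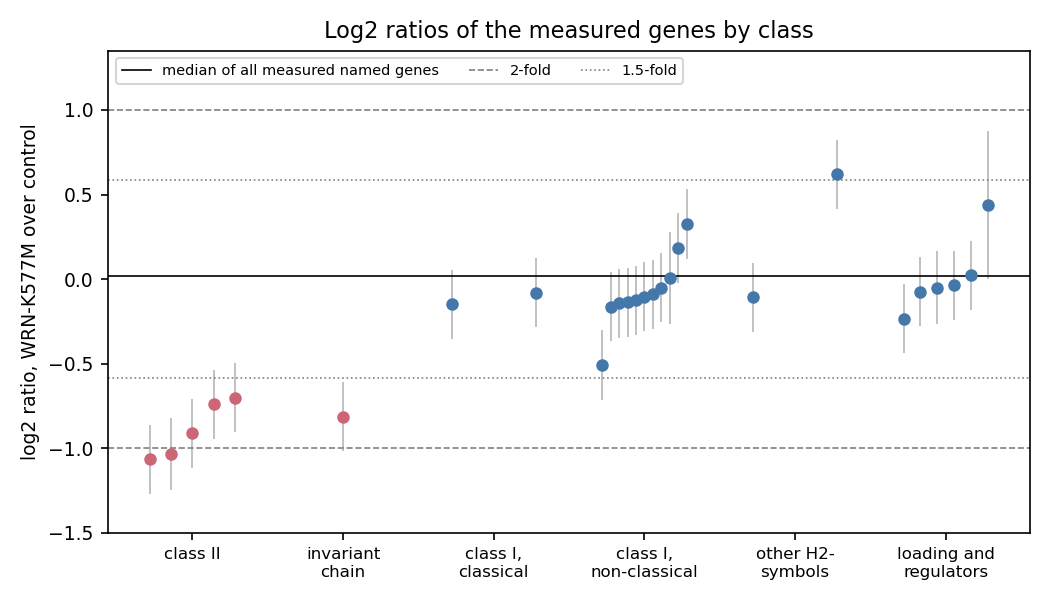
Log2 ratio of the WRN-K577M over the control heart for the 27 measured genes (points), by class, with the software's error of the ratio (bars), the 1.5-fold and 2-fold lines and the median of all measured named genes. The 5 class II genes and Cd74 lie between -1.07 and -0.70, and the 13 class I genes between -0.51 and 0.33.

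The alpha and beta chain genes of class II were lower by all their measured probes. H2-Ab1, the beta chain of I-A, had levels of 4.36 and 3.66 by its brighter probe, a log2 ratio of -0.70. Its other probe gave 4.17 and 3.42, a ratio of -0.76, so that both probes of the gene gave the same direction within the software's error. H2-Aa, the alpha chain of I-A, had levels of 1.45 and 0.70 (-0.74). I-A is the sole class II surface molecule known in mice of C57BL6 background, whose H2-Ea gene for the I-E alpha chain is not expressed, and no probe was named H2-Ea here. H2-Eb1, the I-E beta chain, is nonetheless transcribed in such mice, and its levels were 4.28 and 3.36, a ratio of -0.91. The I-A chains H2-Ab1 and H2-Aa thus lay 1.63-fold and 1.67-fold lower, and H2-Eb1 1.88-fold.

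Cd74, the invariant chain, which was not counted in the class II list, had levels of 3.29 and 2.47, a log2 ratio of -0.82 (1.76-fold lower). This value lies within the range of the class II genes. Of the subunits of the peptide exchange factor H2-DM, H2-DMa had levels of -0.59 and -1.62, a log2 ratio of -1.03 (2.05-fold lower). H2-DMb1 had levels of 0.47 and -0.59, a ratio of -1.07 (2.09-fold lower). These were the members at least 2-fold lower, 2 of 27 measured, where 3.46% of all measured genes were as much lower. No measured member was at least 2-fold higher, where 1.93% of all measured genes were. After normexp the ratio of H2-DMb1 was -0.92 and no member was at least 2-fold lower.

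The remaining class II genes were dim. H2-Oa and H2-Ob encode the chains of H2-DO, a modulator of H2-DM known from B cells. H2-Ob was well above background in the control by both its probes, at -3.26 and -3.71, and by neither in the WRN-K577M heart, which bounds it as at least 2.23-fold and at least 1.63-fold lower. H2-Oa stood at -4.33 in the control and had no probe well above background in the other heart, at least 1.06-fold lower. H2-Eb2 went the other way: its WRN-K577M level of -4.17 stood against a control spot not well above background, at least 1.48-fold higher. A bound sets the level of the brighter array against the gene's own value on the other array or, where that is lower, against the dimmest probe that counted as well above background there (-4.73 for the control, -4.42 for WRN-K577M). Such bounds are nominal and make no allowance for error. The software's error of the log2 ratio was 0.82 for H2-Eb2, 0.72 for H2-Oa, and 0.45 and 0.66 for the H2-Ob probes. H2-DMb2 was not well above background on either array.

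**Figure D2:**
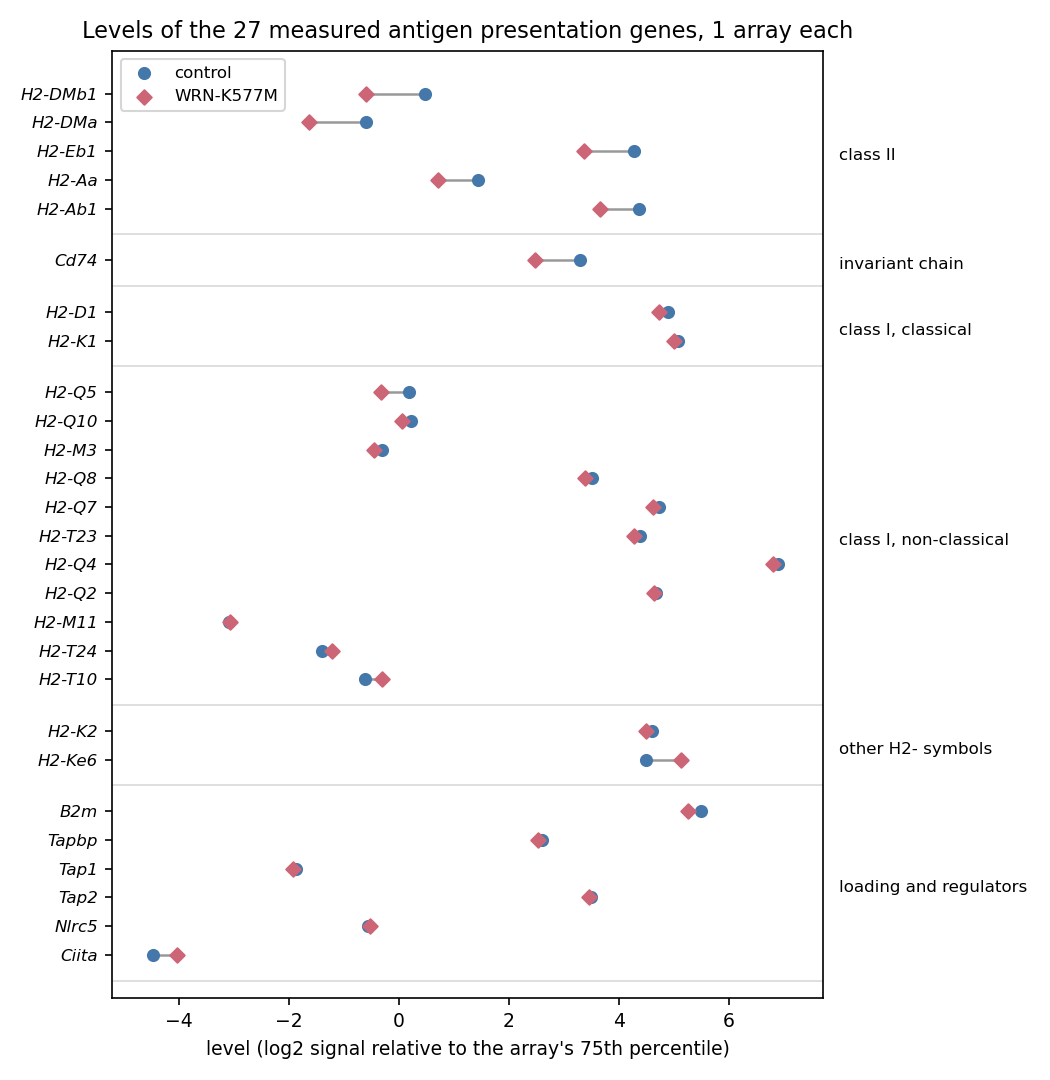
Levels of the 27 measured genes (log2 signal relative to the array's 75th percentile) in the control heart (circles) and the WRN-K577M heart (diamonds), 1 array each, grouped by class. The pairs are spread apart for class II and Cd74 and nearly coincide for most class I and loading genes; levels of different genes are not comparable, since their probes differ.

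The classical class I heavy chains, which present peptides to CD8 T cells, were near equal. H2-K1 was read by a probe with 10 spots, with mean levels of 5.08 and 4.997. The log2 ratios of these spots ran from -0.22 to 0.020 with an SD of 0.075, 9 of them below 0, and their mean was -0.081. The other H2-K1 probe gave -0.11. H2-D1 had levels of 4.89 and 4.74, a ratio of -0.15. These ratios are smaller than the software's error of 0.20, and each of them is closer to 0 than that of any measured class II gene.

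Of 22 non-classical class I genes, which include ligands of natural killer and innate-like T cell receptors, 11 were measured, 8 of them below 0 and 3 above. Heavy chain genes of this complex are near-identical copies in part, and probe sequences were not used here, so a probe named for one may read others and the values of single genes are uncertain. H2-T23, which encodes Qa-1, the ligand of the NKG2 receptors, had levels of 4.38 and 4.28, a ratio of -0.10. H2-Q7, a Qa-2 gene, had levels of 4.74 and 4.61 (-0.13), and H2-Q4 had 6.89 and 6.79 (-0.091). H2-M3, which presents formylated bacterial peptides, stood at -0.31 and -0.45 (-0.14). In this set the lowest ratio was that of H2-Q5, with levels of 0.19 and -0.32 (-0.51), and the highest that of H2-T10, with -0.62 and -0.30 (0.33).

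The other 5 measured non-classical genes had ratios close to 0. H2-Q8 gave -0.14. H2-Q2 gave -0.050 by its brighter probe and -0.14 by the other. H2-M11 gave 0.0067 at levels of -3.08 and -3.07, and H2-T24 gave 0.18 and 0.17 by its probes. H2-Q10, known as a secreted class I protein of liver, is the gene whose probes disagreed: the brighter one had levels of 0.23 and 0.067 (-0.16), while the other, at -2.62 in the control, did not pass background in the WRN-K577M sample, at least 3.44-fold lower. The 11 genes not well above background on either array were H2-M1, H2-M5, H2-M9, H2-M10.1, H2-M10.2, H2-M10.3, H2-M10.4, H2-M10.6, H2-Q1, H2-T3 and H2-T-ps, and most of the H2-M10 genes are known from the vomeronasal organ.

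A pair of H2- genes belongs to neither list. H2-K2, annotated as a non-coding relative of the class I genes, gave -0.11 and -0.16 by its probes, with levels of 4.60 and 4.49 by the brighter one. H2-Ke6, also called Hsd17b8, is a mitochondrial dehydrogenase gene that lies in the complex and takes no part in antigen presentation. Its levels were 4.50 and 5.12, a ratio of 0.62, in a direction opposite to the class II genes. It was the sole measured member at least 1.5-fold higher, 1 of 27, where 6.75% of all measured genes were.

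The genes for class I assembly and for transcription of both classes differed little: their median was -0.043 over 6 genes, with none past 1.5-fold. B2m, the light chain of all class I molecules, had levels of 5.49 and 5.25, and its 2 spots gave ratios of -0.27 and -0.19. Tap1 had levels of -1.87 and -1.92, and the ratios of its 10 spots ran from -0.24 to 0.14, 6 of them below 0, so that the sign of its mean ratio of -0.050 is within the spread between spots. Tap2 had levels of 3.50 and 3.46 (-0.036), and Tapbp, tapasin, which tethers class I to the transporter, had 2.60 and 2.53 (-0.076). Nlrc5 gave 0.021 and -0.075 by its probes. Ciita, the class II transactivator, was among the dimmest measured members, with levels of -4.46 and -4.02. Its ratio of 0.44 is no larger than the software's error for it, 0.44, so that the level of Ciita was not resolved between the samples at this signal, while the class II genes it is known to drive were lower.

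Several of these genes are neighbours, and class II genes differed from the genes that lie among them. In the gene order of the GRCm38.p6 table, 14 protein-coding genes run on chromosome 17 from H2-Oa to H2-Eb2. The 5 measured class II genes among them had ratios of -1.07 to -0.70, and the 5 other measured genes ratios of -0.054 to 0.088. The latter are Brd2, a chromatin reader that stands between H2-Oa and H2-DMa (0.078), and a block of 4 between H2-DMb1 and H2-Ob: the immunoproteasome subunits Psmb9 (0.088) and Psmb8 (-0.054), with Tap1 and Tap2. Levels of Psmb9 were 1.32 and 1.41, and those of Psmb8 1.61 and 1.55.

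**Figure D3:**
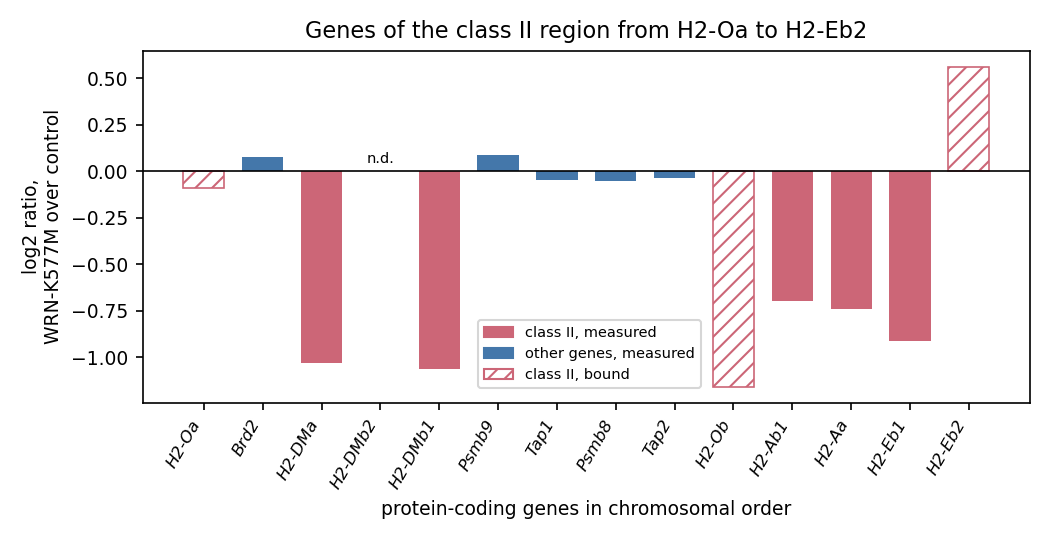
Log2 ratio of the WRN-K577M over the control heart for the 14 protein-coding genes from H2-Oa to H2-Eb2 in chromosomal order, equally spaced. Filled bars are measured genes, hatched bars are bounds for genes well above background on 1 array, and n.d. marks H2-DMb2, well above background on neither; the 5 measured genes that are not class II lie between -0.054 and 0.088.

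The other genes of the pathway were taken from a list of partners, of which 43 had a named probe and 41 were measured. Their median log2 ratio was -0.027, with 20 above and 21 below 0 and none at least 2-fold different. At 1.5-fold, 3 were higher and 3 lower by the brightest probes, where 6.75% and 9.16% of all measured genes were. Of the immunoproteasome, whose interferon-induced subunits cut peptides for class I, 4 genes were measured with a median of -0.086, the lowest being the activator Psme1 at -0.27. Peptide trimming and loading genes had a median of 0.0055 over 5 genes, from Calr, calreticulin (-0.30), to Canx, calnexin (0.071).

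Genes for class II processing in the endosome had ratios in both directions, with a median of -0.15 over 7 genes. The probes of Marchf1, a gene of this list, disagreed, with 0.34 by the brighter and -0.48 by the other. Ifi30, the lysosomal thiol reductase GILT, had levels of 0.29 and -0.54 (-0.84), and Ctss, the cathepsin that degrades the invariant chain in antigen-presenting cells, had 2.84 and 2.26 (-0.58). Ctsl, a cathepsin of many cell types, was higher, with levels of 5.48 and 6.18 (0.70). Ifi30 thus lay at least 1.5-fold lower, Ctss just short of it, and Ctsl at least 1.5-fold higher.

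Factors that act with Ciita at class II promoters had a median of 0.17 over 6 measured genes. Rfxank, an RFX subunit that binds the X box, had levels of 1.60 and 2.43 (0.83). Nfyb, a subunit of the Y box factor, was higher by 0.71, with ratios from 0.53 to 0.81 over its probes. Nfyc, its partner, had levels of 4.67 and 4.06 (-0.61), and its other probe gave -0.49. By the probes at 0.53 and -0.49 these genes are short of 1.5-fold. The X box factor Rfx5 was not well above background on either array. Interferon-gamma is the main inducer of Ciita outside professional antigen-presenting cells, and its gene Ifng was not well above background on either array. The 10 measured genes of its pathway had a median of 0.10 and stayed within 1.5-fold, from Socs1, a feedback inhibitor (-0.57), to the kinase gene Jak1 (0.43). Among MHC-like molecules the median was -0.030 over 5 genes, and Mr1, which presents vitamin B metabolites, had the largest ratio, 0.48.

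The costimulatory genes, whose products accompany class II on antigen-presenting cells, all had ratios below 0, with a median of -0.33 over 4 genes. Cd86 had levels of -1.30 and -2.11 (-0.81), and the other 3 lay between -0.36 and -0.24. Cd86 was the one at least 1.5-fold lower, and its other probe was not well above background on both arrays.

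Markers of some cells known for class II had lower levels in the same heart, most of the macrophage and measured dendritic cell markers among them, and their part in the class II values was not tested. In whole tissue, fewer cells of a type and less RNA per cell cannot be told apart. Of 12 macrophage and monocyte markers all were measured, with a median of -0.64. Below 0 lay 11 of them, where 6667 of all 13999 measured genes did. The marker above 0 was Mertk (0.35). At least 1.5-fold lower were 7 of the 12, where 9.16% of all measured genes were. Among the 7 was Adgre1, which encodes a surface antigen of mouse macrophages, with levels of 0.64 and -0.67 (-1.31). Csf1r, the receptor for the macrophage growth factor, also among them, had 4.35 and 3.63 (-0.72) by its brighter probe and a ratio of 0.19 by another. The summed level of the 12 markers was 55.2 and 34.9, or 0.634 of the control. It is the sum of each marker's signal in units of the array's 75th percentile.

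Of 9 dendritic cell markers 6 were measured, with a median of -0.78 and 5 below 0. The integrin gene Itgax, which encodes CD11c, had levels of -1.502 and -3.47 (-1.97), Batf3 a ratio of -1.14 and Ccr7 one of -1.06. Flt3 (-0.16) and Zbtb46 (-0.50, and -0.40 by its other probe) were short of 1.5-fold. Cd209a passed background in the control alone, at least 2.39-fold lower, and the defining markers Xcr1 and Clec9a passed background on neither array. The summed level was 119 and 126, nearly all of it from Siglech, with levels of 6.88 and 6.96. The other Siglech probe was not well above background on both arrays, nor was the other probe of Flt3.

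Of 7 B cell markers 3 were measured, with a median of -0.074. Cd79b, a chain of the B cell receptor complex, had a ratio of -0.86, Cr2 one of -0.074 and Fcer2a one of 0.022. Ms4a1, a membrane protein of B cells, passed background in the control alone, at least 2.34-fold lower, and Cd79a, Pax5 and Blk on neither array. The summed level of the list was 1.00 and 0.691. Lung alveolar type 2 cells are also known for class II. Of 7 of their markers 5 passed background in the control alone, led by the surfactant gene Sftpc (at least 1336-fold lower), and the summed level was 93.1 and 18.4. Abca3, with levels of 2.31 and 2.99 (0.68), and Lamp3, with 3.84 and 3.37 (-0.47), were measured. Nearly all of the WRN-K577M sum came from Abca3 and Lamp3. The summed level was thus higher in the control, the sample with the higher class II levels, and the part of lung cells in those levels was not tested.

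**Figure D4:**
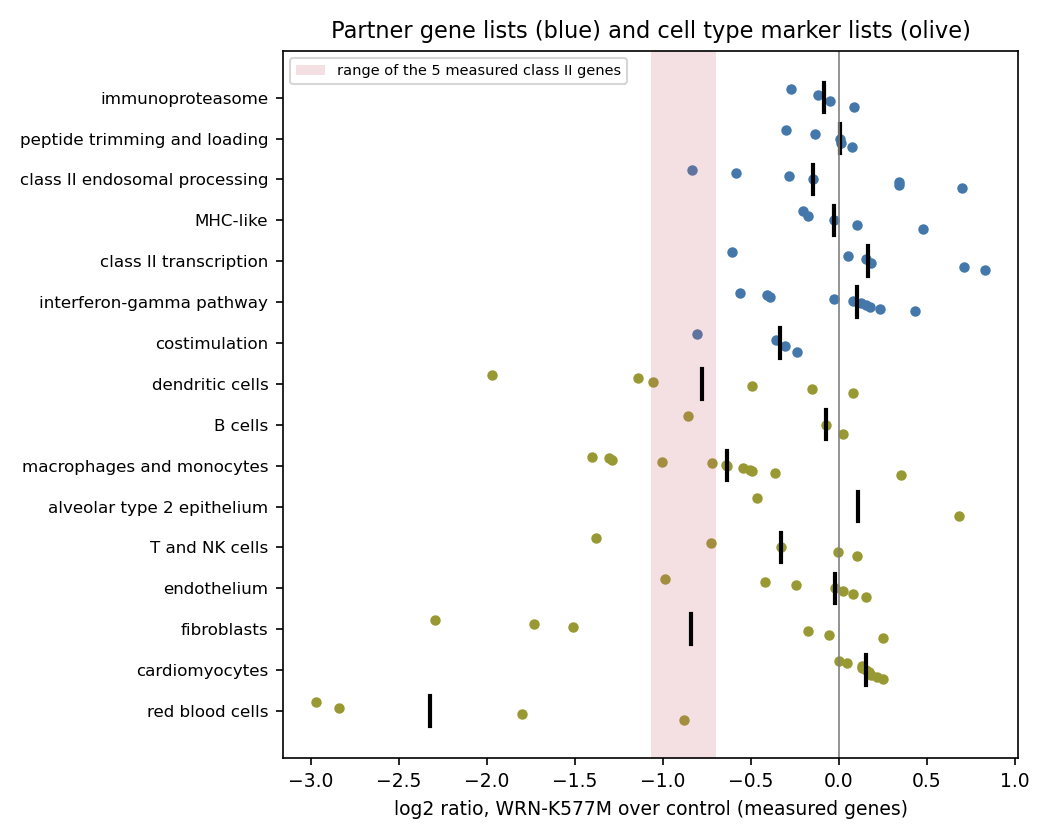
Log2 ratios of the measured genes of the partner lists (blue) and the cell type marker lists (olive), with each list's median (black line) and the range of the 5 measured class II genes (shaded). Each gene is shown by its brightest measured probe. Macrophage and dendritic cell markers have medians of -0.64 and -0.78 and lie mostly below 0. The partner lists other than costimulation spread to both sides of 0, the 4 costimulatory genes lie below 0, and the cardiomyocyte markers lie above 0 by these probes.

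Other lists differed in their values. Endothelial cells, which carry class I and are numerous in heart, had markers with a median of -0.025 over 7 genes, 3 above and 4 below 0, and Cldn5, a tight junction gene, at -0.99. The median was -0.33 for 5 measured T and NK cell markers, -0.84 for 6 fibroblast markers and -2.32 for 4 red blood cell genes. The fibroblast list was split, and no gene lay near its median. Col3a1 (-2.29), Col1a1 (-1.73) and Lum (-1.51) were lower, while Pdgfra had a ratio of -0.18, Dcn -0.059 and Tcf21 0.25. No cell type was measured separately, so these lists describe the whole tissue.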

How the data were processed

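The files are scanner output of 1-colour Agilent arrays, 1 per group and on the same slide, from version 11.5.1.1 of Agilent Feature Extraction according to the submitters' processing notes. Per the file headers, the processed signal is an intensity after background subtraction and detrending within each array, with no scaling from array to array. Software flags mark outlier, saturated and well-above-background spots, and no spot was saturated. The deposited series matrix holds linear intensity, the processed signal times a factor of 4.12 (control) or 4.86 (WRN-K577M).

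Control spots and 257 outlier spots, none of a member, were left out. Levels are log2 processed signals minus the log2 of the 75th percentile (256 in the control, 209.7 in WRN-K577M). Spots of a probe were averaged, and a probe was well above background if all its spots were. A gene took its brightest measured probe. RefSeq accessions were matched without versions to RefSeq's GRCm38.p6 genes, 22544 of 23871, whereas the array design is annotated on mm9, per the file headers. For promoters, 31 of 42 members matched RefSeq windows.

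Every probe of every member is named or counted. Of the partners, the 10 with the largest absolute ratio and those needed for a count are named; other genes were named for their place or role or after their values were seen. A B cell marker of the planned list is not reported here. Members, lists and classes were chosen with earlier results of these data known. Alternatives were other scalings, quantile normalization, normexp on the median spot signal, the deposited matrix, filters on dim probes, probe averaging and thresholds. Adding H2-K2 to class I or Cd74 to class II was chosen after seeing the data. The software was Python 3.11.15, numpy 2.4.6, pandas 2.3.3, matplotlib 3.10.9, R 4.3.3 and limma 3.58.1, and the counting was tested on simulated data.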

Additional observations from a re-analysis of the deposited data

How the results depend on the processing

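The number of arrays limits the precision: with 1 array per group, no alternative shows the spread between hearts. The 5 measured class II genes and Cd74 stayed below 0 under all 9 settings that give a value per gene (the main one included), and the class I median stayed below 0 between -0.15 and -0.022 under the alternatives. After normexp with an offset of 50, the class II median was -0.72, the difference between the class medians -0.58, the number of members at least 2-fold lower 0 in place of 2 and of those at least 1.5-fold lower 5 in place of 6 (without H2-DMa), and the median of the partner list 0.014, above 0. At a threshold of 1.5-fold 6 members were lower and 1 higher, at 3-fold 0 in both directions. Without a filter on dim probes 1 member, H2-Eb2, was at least 2-fold higher, and the median of all genes was 0.12 in place of 0.020. No other alternative moved a median by as much as the SD between spots of a probe or a count of members by over 1.5 times. Of single genes, H2-M11, Nlrc5 and Tap1 had a ratio on both sides of 0 across settings. Dim members such as Ciita and H2-Oa have signals close to background, so that signal over background limits their ratios. No paired analysis was possible because each group has 1 array.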
